A study of Homo sapiens with 9 samples.

Results

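The endoplasmic reticulum (ER) chaperones and the heat-shock chaperones are the 2 large protein-folding systems of a human cell, and 41 of their genes were followed here in prostate cancer cells given neuregulin. The genes were picked by symbol from the count table, on the condition of at least 10 counts in at least 3 of the 9 libraries, and all 41 listed genes met it, out of 37351 genes in the table. All 41 were also among the 19250 genes tested. Of these, 24 encode proteins of the ER or of its stress pathway (ER members). The other 17 (heat-shock members) comprise 14 cytosolic chaperones, the mitochondrial pair HSPD1 and HSPE1, and HSF1, the transcription factor of the heat-shock response.

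The cells were LNCaP, an androgen-responsive line from a human prostate cancer metastasis. They had been plated in wells, starved in medium lacking serum and calcium, and given recombinant NRG1 (15 ng/mL), a secreted ligand of the receptor HER3, and RNA was collected at 0, 12 and 24 h with 3 libraries per time. Titles call the libraries biological replicates, but all came from a single line, so p-values measure the spread between these samples only. The 0 h libraries carry the same treatment label with a time of 0. Cells held in that medium for 12 or 24 h with no NRG1 were not analysed here, so the ligand and the time in starvation cannot be told apart. These are bulk samples, in which fewer cells of a kind and less RNA per cell cannot be told apart either.

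Proteins that enter the secretory pathway fold in the ER with the help of HSPA5 (BiP), the ER member of the HSP70 family, and of lectins and disulfide isomerases, and proteins that fail to fold are sent back to the cytosol for degradation. When unfolded proteins build up, the sensors ATF6, ERN1 (IRE1) and EIF2AK3 (PERK) start the unfolded protein response, in which ATF6 and XBP1 switch on chaperone genes through short promoter elements. The cytosol has its own HSP70, HSP90 and chaperonin machines, many of whose genes are driven by HSF1 through heat-shock elements. Secretory cells such as prostate epithelium, which makes large amounts of glycoprotein, rely on a large folding capacity in the ER.

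The elements through which the 2 systems are known to be regulated were looked for in the RefSeq promoter windows of GRCh38.p14, each with 250 bases before and 50 bases after an annotated start. The windows covered 39 of the 41 members, all but PDIA3 and HSF1. The ER stress element (ERSE), written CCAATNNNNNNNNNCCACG and searched on both strands, stood in 7 of 23 ER members and in 0 of 16 heat-shock members, against 0.0916% of the 27305 genes with a window. The sites of ER members whose values are given below are shown so that the shared letters can be seen, 5′ to 3′ on the strand of the gene, with the element in capitals.
HSPA5: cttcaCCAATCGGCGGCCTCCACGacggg
XBP1: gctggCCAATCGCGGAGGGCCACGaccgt
PDIA6: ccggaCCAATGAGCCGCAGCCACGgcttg
HSP90B1, distal site: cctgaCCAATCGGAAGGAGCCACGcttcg
HSP90B1, proximal site: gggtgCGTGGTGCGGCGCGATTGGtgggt
CALR: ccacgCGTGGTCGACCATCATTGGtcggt
CRELD2: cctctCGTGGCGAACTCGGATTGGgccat
CANX: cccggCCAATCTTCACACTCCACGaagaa
In HSP90B1 (proximal site), CALR and CRELD2 the element lay on the opposite strand, so its reverse complement is seen. The printed stretches are chr9:125241386-125241414 (HSPA5, minus strand), chr22:28800598-28800626 (XBP1, minus), chr2:10812848-10812876 (PDIA6, minus), chr12:103930211-103930239 and chr12:103930316-103930344 (HSP90B1, plus), chr19:12938379-12938407 (CALR, plus) and chr22:49918549-49918577 (CRELD2, plus). In HSPA5 the element began 66 bases before the start of the transcript. CANX held it once, in the windows of several of its alternative starts, at chr5:179698773-179698801 (plus).

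The related element ERSE-II, written ATTGGNCCACG, stood in 3 ER members that lacked the first, HYOU1, HERPUD1 and SDF2L1, and in 0 heat-shock members, against 0.0696% of all genes. These sites are shown so that the shared letters can be seen. Some ER members without either element had falls of similar size to those of the 3 genes, as given below.
HYOU1, distal site: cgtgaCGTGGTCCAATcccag
HYOU1, proximal site: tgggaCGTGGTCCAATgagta
HERPUD1: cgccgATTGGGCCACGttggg
SDF2L1: ggaagCGTGGACCAATcaaaa
They lie at chr11:119057375-119057395 and chr11:119057269-119057289 (HYOU1, minus strand), chr16:56932020-56932040 (HERPUD1, plus) and chr22:21642109-21642129 (SDF2L1, plus). The unfolded protein response element TGACGTGG, which 0.927% of genes carried, was found in HYOU1 and in no other of the 39 members, where it overlaps the distal ERSE-II.

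Heat-shock elements, searched as the units GAANNTTCNNGAA and TTCNNGAANNTTC, stood in 5 of 16 heat-shock members and in 0 ER members, against 0.608% of all genes. Those upstream of the start are shown, as the counterpart on the cytosolic and mitochondrial side. In DNAJA1 the match lay just after the start and is not printed.
HSPA8, distal site: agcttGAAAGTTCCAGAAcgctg
HSPA8, proximal site: gccccTTCTGGAAGGTTCtaaga
HSP90AB1, distal site: gcaggTTCTGGAAGATTCatggg
HSP90AB1, proximal site: gattgTTCTGGAAGCTTCtggat
HSP90AA1: ggttcTTCCGGAAGGTTCgggag
HSPD1: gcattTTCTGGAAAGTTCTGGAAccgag
These are chr11:123062349-123062371 and chr11:123062174-123062196 (HSPA8, minus strand), chr6:44247773-44247795 and chr6:44247826-44247848 (HSP90AB1, plus), chr14:102087115-102087137 (HSP90AA1, minus) and chr2:197500063-197500090 (HSPD1, minus, where matches overlap). The annotated span of HSPE1, on the other strand, begins at 197500140, so the HSPD1 element also lies upstream of that span. No window of HSPE1 held it, and HSPE1 is counted as lacking the element. A match to these letters describes the sequence and does not show binding of a factor in these cells.

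The libraries held 47016302 to 60985825 counts, with the deepest at 0 h, and levels are given as CPM (counts scaled to library size), with the library sizes adjusted by trimmed means (TMM). The common biological coefficient of variation was 4.07%, so differences of well under 1.5-fold could be tested. The cells carried the markers of their label, with 8 prostate epithelial genes summing to 4024 to 4329 CPM, while 3 leukocyte genes summed to 0.296 CPM at most. Fibroblast genes summed to 23.9 to 28.0 CPM, nearly all of it COL1A1, with COL1A2 at 0 to 0.0195 CPM. The endothelial genes summed to 12.95 to 13.6 CPM at 0 h, 8.36 to 9.31 CPM at 12 h and 6.89 to 8.06 CPM at 24 h, all but a trace of it VWF, with PECAM1 at 0 to 0.0343 CPM. VWF thus moved with time in the direction of the ER members, and its part in their values was not tested. One 0 h library, replicate 1, was the lowest of its group for most ER members, and without it 21 ER members were lower at 12 h and 19 at 24 h, against the 18 and 18 given next. Without 0 h replicate 2 the numbers were 12 and 16.

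The first comparison asked which of these genes had a different level after 12 h with NRG1. Of 24 ER members, 18 were lower than at 0 h and none rose, by edgeR's quasi-likelihood test with Benjamini-Hochberg adjusted p-values over all tested genes. This is 75% of the ER members, whereas 8.16% of all tested genes were lower, and among the 5305 genes with a mean level of at least 40 CPM, where 40 of the 41 members lie, 13.8% were lower. Of 17 heat-shock members, 10 rose and none fell, which is 58.8%, against 10.6% higher among all tested genes and 21.4% among the abundant ones. The limit of 40 CPM was set after the values were seen. The members were chosen with earlier results of these data known, so these shares describe the list and do not test it. The median log2 fold change was -0.18 over the ER members, 0.09 over the heat-shock members and -0.01 over all tested genes.

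After 24 h the picture was similar on the ER side and mixed on the other. Again 18 of 24 ER members were lower than at 0 h and none rose, against 9.48% lower among all tested genes and 15.2% among the abundant ones. Of the heat-shock members 7 rose and 3 fell. The rises are 41.2%, against 11.6% higher among all tested genes and 21% among the abundant ones. The falls are 17.6%, against 9.48% lower among all tested genes and near the 15.2% among the abundant ones. The medians were -0.23 (ER members), 0.05 (heat-shock members) and -0.01 (all genes). The heat-shock median ran from 0.02 without 0 h replicate 1 to 0.08 without 24 h replicate 3, and was 0.03 without 24 h replicate 1 or 2. Both comparisons share the 0 h libraries, so the 24 h values do not repeat the 12 h values independently. The only ER members with a value above 0 were CREB3L2 at 12 h (log2 fold change 0.01, unadjusted p = 0.874) and ERN1 at 24 h (0.04, unadjusted p = 0.267).

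All these changes were small. No member reached a fold change of 1.5 together with the adjusted p-value in any comparison, by edgeR or by DESeq2. Few tested genes did so either, 2.37% in the 12 h comparison, 3.31% in the 24 h comparison and 0.452% from 12 to 24 h. With shares this low, the lack of such a member does not set a list of this size apart from all genes. These shares were not taken over the abundant genes alone. At an unadjusted p-value under 0.05, 31 members differed from 0 h after 12 h, 32 after 24 h, and 17 differed between the 2 later times. Of the 19250 tested genes 5705, 5998 and 3629 did so in the same comparisons. Without 12 h replicate 3, HSPA1A, a gene with under 1 CPM, passed both limits at 12 h with a log2 fold change of -1.21. DESeq2 gave the same call as edgeR for every member in every comparison, apart from HSPA1A, for which it gave no adjusted p-value in the comparisons that include 12 h.

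**Figure D1:**
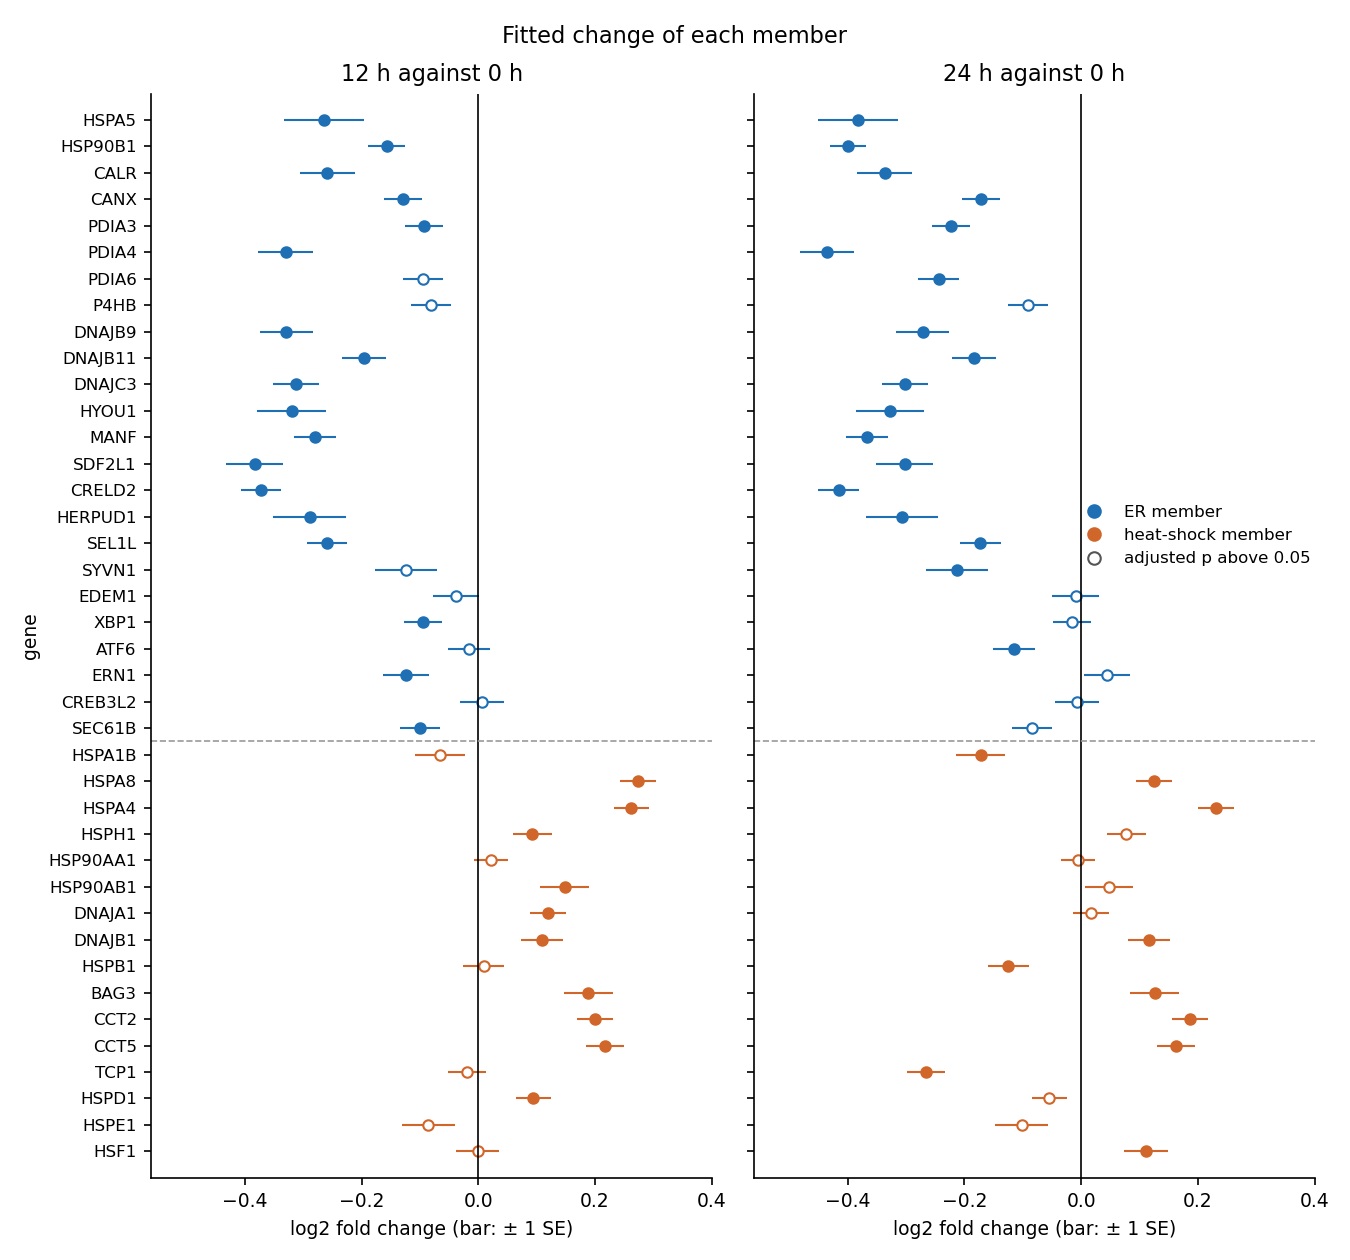
Fitted log2 fold change of 40 members (x axis, bars are 1 standard error) at 12 h and at 24 h against 0 h, with ER members in blue above the dashed line and heat-shock members in orange below it; open points did not pass the adjusted p-value of 0.05, and HSPA1A (-0.67 and -0.65) lies outside the axis. The filled blue points all lie left of 0, down to -0.38 at 12 h and -0.44 at 24 h, while the filled orange points lie right of 0 at 12 h and on both sides at 24 h.

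HSPA5, the central HSP70 chaperone of the ER lumen (ENSG00000044574.9, chromosome 9, 125234853 to 125241382, GRCh38), was among the most abundant members. Its level was 2752, 3123 and 3324 CPM in the 0 h libraries, 2421, 2564 and 2672 CPM at 12 h, and 2266, 2428 and 2361 CPM at 24 h. Every later library lay below every 0 h library, while the 12 and 24 h libraries overlapped. The log2 fold change was -0.26 ± 0.07 (SE) at 12 h, with an edgeR adjusted p of 0.0303, and -0.38 ± 0.07 at 24 h, with an adjusted p of 0.00441. The 12 h call was lost in 5 of 19 alternative settings, among them the fit without 0 h replicate 2 (adjusted p = 0.111), and the adjusted p ranged from 9.03e-09 to 0.111.

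HSP90B1, the HSP90 of the ER known as GRP94 (ENSG00000166598.16, chromosome 12, 103930107 to 103953931), was lower at each successive time. It stood at 2973, 3133 and 3165 CPM at 0 h, at 2736, 2847 and 2732 CPM at 12 h, and at 2299, 2349 and 2382 CPM at 24 h. The 3 groups did not overlap at all. It fell by 0.16 on the log2 scale at 12 h and by 0.40 at 24 h (SE 0.03 each, edgeR adjusted p = 1.8e-12 at 24 h), and the 24 h level was also lower than the 12 h level, by -0.24 ± 0.03 (adjusted p = 1.24e-06).

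Calreticulin (CALR), the soluble lectin that binds calcium and newly made glycoproteins, fell by 0.26 at 12 h and by 0.34 at 24 h. Its libraries read 2753, 3174 and 3049.6 CPM at 0 h, 2409.7, 2573 and 2521 CPM at 12 h, and 2414, 2460.4 and 2235 CPM at 24 h. Its membrane-bound counterpart calnexin (CANX), with a mean of 1324 CPM at 0 h, changed less, by -0.13 at 12 h and -0.17 at 24 h (edgeR adjusted p = 0.00329 and 0.0001), with every later library below every 0 h library.

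The disulfide isomerases, which form and rearrange the cysteine bonds of secreted proteins, did not move alike. PDIA4 fell most among them, from 745, 839 and 875 CPM at 0 h to 623, 658 and 674 CPM at 12 h and 608, 619 and 591 CPM at 24 h, a log2 fold change of -0.33 ± 0.05 and then -0.44 ± 0.05 (edgeR adjusted p = 4.97e-05 and 1.51e-06). PDIA3P1, a near-identical copy of part of PDIA3, had 2660 counts against 508803 for PDIA3. In all, 6 genes matched a stretch of PDIA3, of 439 bases at most, and their counts came to 19.98% of those of PDIA3. PDIA3, which works with CALR and CANX on glycoproteins, fell by 0.09 at 12 h and by 0.22 at 24 h, and its 12 h call was lost in 6 of 19 settings. PDIA6 did not pass at 12 h (log2 fold change -0.10, edgeR adjusted p = 0.0505), though it did in 7 of 19 settings, and fell by 0.24 at 24 h. P4HB, the first isomerase described and also a subunit of collagen prolyl hydroxylase, passed at neither time, with -0.08 at 12 h (adjusted p = 0.0969) and -0.09 at 24 h (adjusted p = 0.05002). P4HB did pass at 24 h in 7 of 19 settings.

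Among the helpers of HSPA5 the falls were of similar size at both times. DNAJB9, a J-domain co-chaperone, was measured at 54.7, 58.9 and 60.5 CPM at 0 h, at 44.4, 47.8 and 46.4 CPM at 12 h and at 44.9, 49.5 and 49.7 CPM at 24 h, giving -0.33 and -0.27 on the log2 scale. DNAJC3 fell by 0.31 and by 0.30, and DNAJB11, the J-domain partner of SDF2L1, by 0.20 and by 0.18. HYOU1, the nucleotide exchange factor of HSPA5, had 785, 919 and 946 CPM at 0 h, 689, 708 and 726 CPM at 12 h and 689, 722 and 701 CPM at 24 h. Its fitted changes were -0.32 ± 0.06 and -0.33 ± 0.06, and in all 4 genes every later library was below the lowest 0 h library. How many of all tested genes separate in this way was not counted.

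The small ER-resident proteins SDF2L1, CRELD2 and MANF, whose genes are known targets of the unfolded protein response, showed some of the largest falls of the set. SDF2L1 stood at 130.0, 150.3 and 148 CPM at 0 h, at 106, 111 and 112 CPM at 12 h and at 109, 119.9 and 119 CPM at 24 h, and its log2 fold change was -0.38 ± 0.05 at 12 h and -0.30 ± 0.05 at 24 h. CRELD2 stood at 194, 213 and 205 CPM at 0 h, at 154, 161 and 158 CPM at 12 h and at 153, 151 and 155 CPM at 24 h, and changed by -0.37 ± 0.03 and -0.42 ± 0.03 (edgeR adjusted p = 2.48e-10 and 1.01e-11). MANF, also secreted as a survival factor, went from 370.1, 413 and 416 CPM to 322, 326 and 339.7 CPM and then 313, 311 and 306 CPM, a fall of 0.28 and of 0.37. None of the 3 genes had a later library within its 0 h range, a separation not counted over all tested genes. In all, 13 of the 15 lumenal chaperones and foldases were lower at 12 h and 14 of 15 at 24 h, with medians of -0.26 and -0.30. These are 86.7% and 93.3%, against 8.16% and 9.48% lower among all tested genes and 13.8% and 15.2% among the abundant ones.

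**Figure D2:**
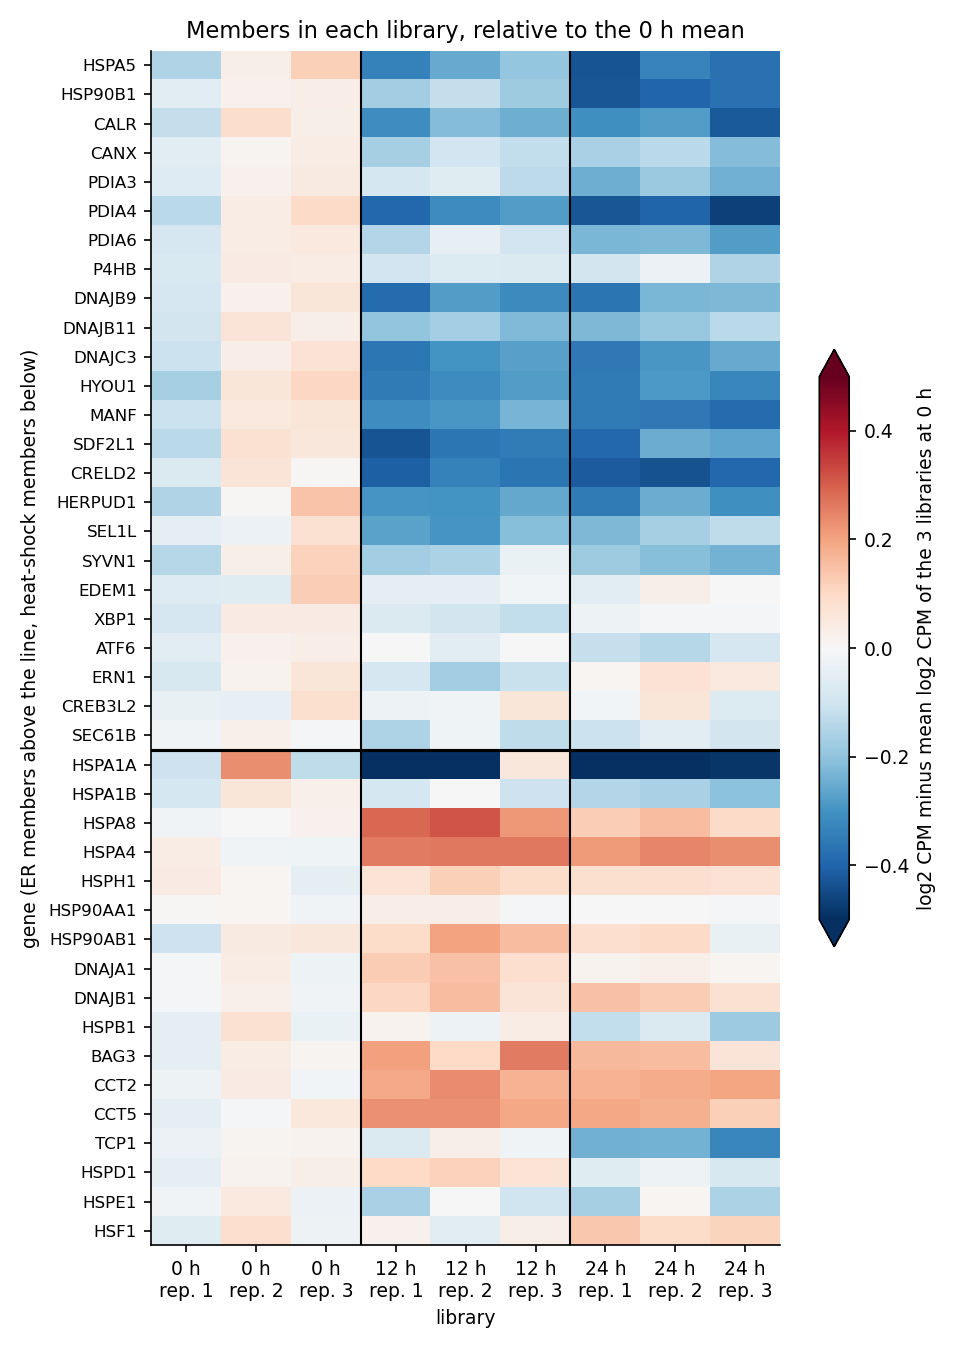
Level of each of the 41 members in each of the 9 libraries, as log2 CPM minus the mean log2 CPM of the 3 libraries at 0 h (color), with ER members above the horizontal line and heat-shock members below it. Most lumenal chaperones turn blue in all 6 later libraries, HSPA8, HSPA4, CCT2 and CCT5 turn red in all 6, TCP1 turns blue only in the 24 h libraries, and 0 h replicate 1 is bluer than the other two 0 h libraries for most ER members.

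Of the 4 members that belong to ER-associated degradation, HERPUD1, an adaptor in the ER membrane, fell at both times. It was at 326, 364 and 400.2 CPM at 0 h, 295, 294 and 303 CPM at 12 h and 283, 305 and 293 CPM at 24 h. The fitted log2 values were -0.29 ± 0.06 and then -0.31 ± 0.06, and the 12 h call was lost in 1 of 19 settings. SEL1L, which holds the ubiquitin ligase complex together, fell by 0.26 at 12 h and by 0.17 at 24 h, from 414, 418 and 449.9 CPM to 355, 348 and 368 CPM and then 365, 380.4 and 391 CPM. The ligase itself, SYVN1, changed by -0.12 at 12 h (edgeR adjusted p = 0.128) and fell by 0.21 at 24 h. SYVN1 passed at 12 h in 5 of 19 settings, and its 24 h call was lost in 2. EDEM1, which picks out misfolded glycoproteins, had values of -0.04 and -0.01 with overlapping libraries (edgeR adjusted p = 0.584 and 0.905).

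Of the 4 sensors and transcription factors, 2 were lower at 12 h and 1 at 24 h, with medians of -0.06 and -0.01. XBP1, whose protein drives many of the genes above, read 434, 472 and 473 CPM at 0 h, 437, 431 and 422 CPM at 12 h, and 451, 456 and 456 CPM at 24 h. Its 12 h value of -0.10 ± 0.03 passed (edgeR adjusted p = 0.038) but the libraries overlapped and the call was lost in 8 of 19 settings, and its 24 h value was -0.02 (adjusted p = 0.801). The table counts whole genes, so the spliced, active form of XBP1 was not measured apart. ERN1, the kinase and nuclease that splices XBP1, was at 72.6, 77.8 and 80.0 CPM at 0 h, 72.3, 68.1 and 71.0 CPM at 12 h and 77.3, 80.8 and 79.4 CPM at 24 h. It was lower at 12 h (-0.12, adjusted p = 0.0228) and higher at 24 h than at 12 h (0.17, adjusted p = 0.00599), with no call between 24 h and 0 h (0.04, adjusted p = 0.491). The 12 h call of ERN1 was lost in 4 of 19 settings (adjusted p up to 0.169) and its call between the later times in 1. ATF6 was lower at 24 h alone (-0.12, edgeR adjusted p = 0.0207; -0.02 at 12 h), a call lost in 4 of 19 settings. CREB3L2, a relative of ATF6 that is active in secretory cells, had values of 0.01 and -0.01 (adjusted p = 0.942 and 0.921). SEC61B, a small subunit of the translocation channel, was lower at 12 h (-0.10, adjusted p = 0.0372) with -0.08 at 24 h (adjusted p = 0.0803), and its 12 h call was lost in 7 of 19 settings.

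Genes of the same ER systems outside the 41 were read from lists written from general knowledge of each pathway, with earlier results of these data known. Their counts stand against 8.16% lower and 10.6% higher among all tested genes at 12 h and 9.48% and 11.6% at 24 h, and, among genes of at least 40 CPM, 13.8% lower and 21.4% higher at 12 h and 15.2% and 21% at 24 h. Of 23 other folding enzymes 5 were lower and 1 higher at 12 h, and 5 lower and 2 higher at 24 h (21.7% lower each time), with UGGT1, the glycoprotein folding sensor, at -0.28 and ERO1A, an oxidase that feeds the disulfide isomerases, at 0.25 at 12 h, and FKBP14 at -0.30 and UGGT2 at 0.16 at 24 h. Of 14 other degradation genes 6 were lower and 0 higher at 12 h, and 7 lower and 1 higher at 24 h (42.9% and 50% lower), where DERL3, at 5.25 CPM at 0 h, changed by -0.36 and -0.49, and EDEM3 rose by 0.11 at 24 h. Of 29 translocation and glycan transfer genes 10 were lower and 1 higher at 12 h, and 11 lower and 1 higher at 24 h (34.5% and 37.9% lower), with the signal peptidase subunits SPCS2 (-0.23 and -0.20) and SPCS1 (0.09 and 0.12) at the 2 ends.

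The PERK branch went both ways. Of its 8 genes 3 were lower and 2 higher at 12 h, and 3 lower and 3 higher at 24 h, on a list too short for a share to be read against all genes. DDIT3, the factor CHOP, fell from 57.4 to 45.4 CPM at 12 h (log2 fold change -0.34), and NUPR1 fell by 0.32 at 24 h. The sensor EIF2AK3, named after its values were seen, fell by 0.31 and by 0.29. PPP1R15A, the phosphatase subunit that restores translation, rose by 0.29 at 12 h and by 0.55 at 24 h. Of 18 genes of ER calcium handling 5 were lower and 1 higher at 12 h and 3 lower and 2 higher at 24 h (27.8% and 16.7% lower, the latter near the 15.2% of abundant genes), with NUCB2 at -0.34 at 12 h, the calcium sensor STIM1 at -0.30 at 24 h, and the calcium channel ITPR3 higher at both times (0.18 and 0.21). Of 7 tested genes of the processing and related factors, again too few for a share, 2 were lower at each time, with CREB3L4, a relative of ATF6 that is abundant in prostate, at -0.22 and -0.46, and TMBIM6 was higher at 12 h by 0.09. CREB3L1, also on that list, had too few counts to be tested.

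On the cytosolic side, HSPA8, the constitutive HSP70 (ENSG00000109971.14, chromosome 11, 123057489 to 123063230), rose most in absolute level. It was at 2238, 2263 and 2301 CPM at 0 h, at 2765, 2820.35 and 2634 CPM at 12 h, and at 2469.55, 2523 and 2422 CPM at 24 h. No libraries of any 2 times overlapped, the 12 h level being the highest. The log2 fold change was 0.27 ± 0.03 at 12 h (edgeR adjusted p = 2.13e-08) and 0.12 ± 0.03 at 24 h (adjusted p = 0.00279), and the 24 h level was lower than the 12 h level by -0.15 ± 0.03 (adjusted p = 0.00185).

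HSPA4, an exchange factor of the HSP110 class, rose and stayed up. Its libraries were at 294, 282 and 282 CPM at 0 h, 342, 344 and 343 CPM at 12 h and 332, 339 and 336 CPM at 24 h, and it was higher by 0.26 ± 0.03 and 0.23 ± 0.03. Its relative HSPH1 was higher by 0.09 at 12 h with an adjusted p of 0.0487, a call lost in 11 of 19 settings, and had 0.08 at 24 h (adjusted p = 0.103). The J-domain proteins DNAJA1 and DNAJB1, which deliver clients to HSP70, rose by 0.12 and by 0.11 at 12 h. At 24 h DNAJB1 was still higher than at 0 h (0.12, adjusted p = 0.0164), and DNAJA1 was at 0.02 (adjusted p = 0.771). The DNAJB1 calls were each lost in some settings, 4 of 19 at 12 h and 3 of 19 at 24 h. BAG3, an HSP70 partner in selective autophagy, rose by 0.19 and by 0.13, from 58.1, 61.7 and 60.8 CPM to 69.4, 64.5 and 72.0 CPM and then 67.2, 67.0 and 62.8 CPM, and its 24 h call was lost in 3 of 19 settings (adjusted p up to 0.109).

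HSPA1B, a stress-inducible HSP70 gene, was not higher at either time. It was at 55.8, 61.8 and 60.3 CPM at 0 h, at 55.8, 59.1 and 55.1 CPM at 12 h and at 53.5, 53.0 and 51.4 CPM at 24 h, and its change was -0.07 at 12 h (edgeR adjusted p = 0.318) and -0.17 at 24 h (adjusted p = 0.00248). HSPA1A was listed with 267 counts over all libraries against 27433 for HSPA1B. The longest transcripts of the pair match over 2148 bases, so reads cannot be assigned between them with certainty and the split of counts is not a measure of their relative levels. The small heat-shock protein gene HSPB1 had 0.01 at 12 h (adjusted p = 0.902) and fell by 0.13 at 24 h, when its libraries lay at 270.2, 279.7 and 259 CPM, below the 285 to 310.2 CPM of 0 h. That 24 h call of HSPB1 was lost in 2 of 19 settings (without 0 h replicate 2 or 24 h replicate 3). HSPA6, an inducible HSP70 gene outside the members, was higher at both times at about 1 CPM (0.77 and 1.29, adjusted p = 0.031 and 0.000167).

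The 2 cytosolic HSP90 genes differed in call. HSP90AB1, the constitutive gene, was at 1798, 1988 and 2009 CPM at 0 h, 2055, 2218 and 2148 CPM at 12 h and 2046, 2063 and 1881 CPM at 24 h, and it was higher at 12 h by 0.15 ± 0.04 (edgeR adjusted p = 0.0142) but not at 24 h (0.05, adjusted p = 0.488). HSP90AA1, the more inducible one, had values of 0.02 and -0.01 with libraries between 1717 and 1779.8 CPM throughout (adjusted p = 0.693 and 0.933). Whether the 2 genes differed from each other in response was not tested.

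The chaperonin CCT, a ring that folds actin and tubulin, was represented by 3 subunits with different calls. CCT2 was at 292, 306 and 294 CPM at 0 h, 339, 351 and 335 CPM at 12 h and 336, 339 and 341 CPM at 24 h, a rise of 0.20 and 0.19. CCT5 rose by 0.22 and by 0.16, from 271, 279 and 290.1 CPM to 328, 328 and 320.3 CPM and then 319.7, 317 and 304 CPM. TCP1, the subunit that gave the complex its name, was at 506, 522 and 524 CPM at 0 h, 492, 528 and 511 CPM at 12 h, and 438, 439 and 413 CPM at 24 h. Its 12 h value was -0.02 (edgeR adjusted p = 0.752), its 24 h value -0.27 ± 0.03 (adjusted p = 7.44e-08), and 24 h differed from 12 h by -0.25 ± 0.03 (adjusted p = 2.25e-06).

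Within each library the log2 ratio of TCP1 to CCT2 was 0.80 ± 0.03 at 0 h, 0.58 ± 0.04 after 12 h and 0.35 ± 0.06 after 24 h (SD, n = 3), with no overlap between times, and the ratio of TCP1 to CCT5 was 0.89 ± 0.03, 0.65 ± 0.06 and 0.46 ± 0.01. TCP1 overlaps ACAT2, a gene of sterol metabolism on the other strand whose counts amount to 17.8% of those of TCP1. ACAT2 itself differed by 0.18 (12 h), by -0.16 (24 h) and by -0.34 (24 h against 12 h), each past the adjusted p-value. The strand setting of the counting is not given in the sources used here, so reads of the 2 genes cannot be told apart in the overlap, and the part of ACAT2 in the TCP1 values was not tested. Of 12 other chaperonin and prefoldin subunits 8 were higher and 0 lower at 12 h and 5 higher and 0 lower at 24 h, with CCT6A showing the largest rise of those that passed (0.21 and 0.18). These are 66.7% and 41.7% higher, against 10.6% and 11.6% of all tested genes and 21.4% and 21% of the abundant ones.

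**Figure D3:**
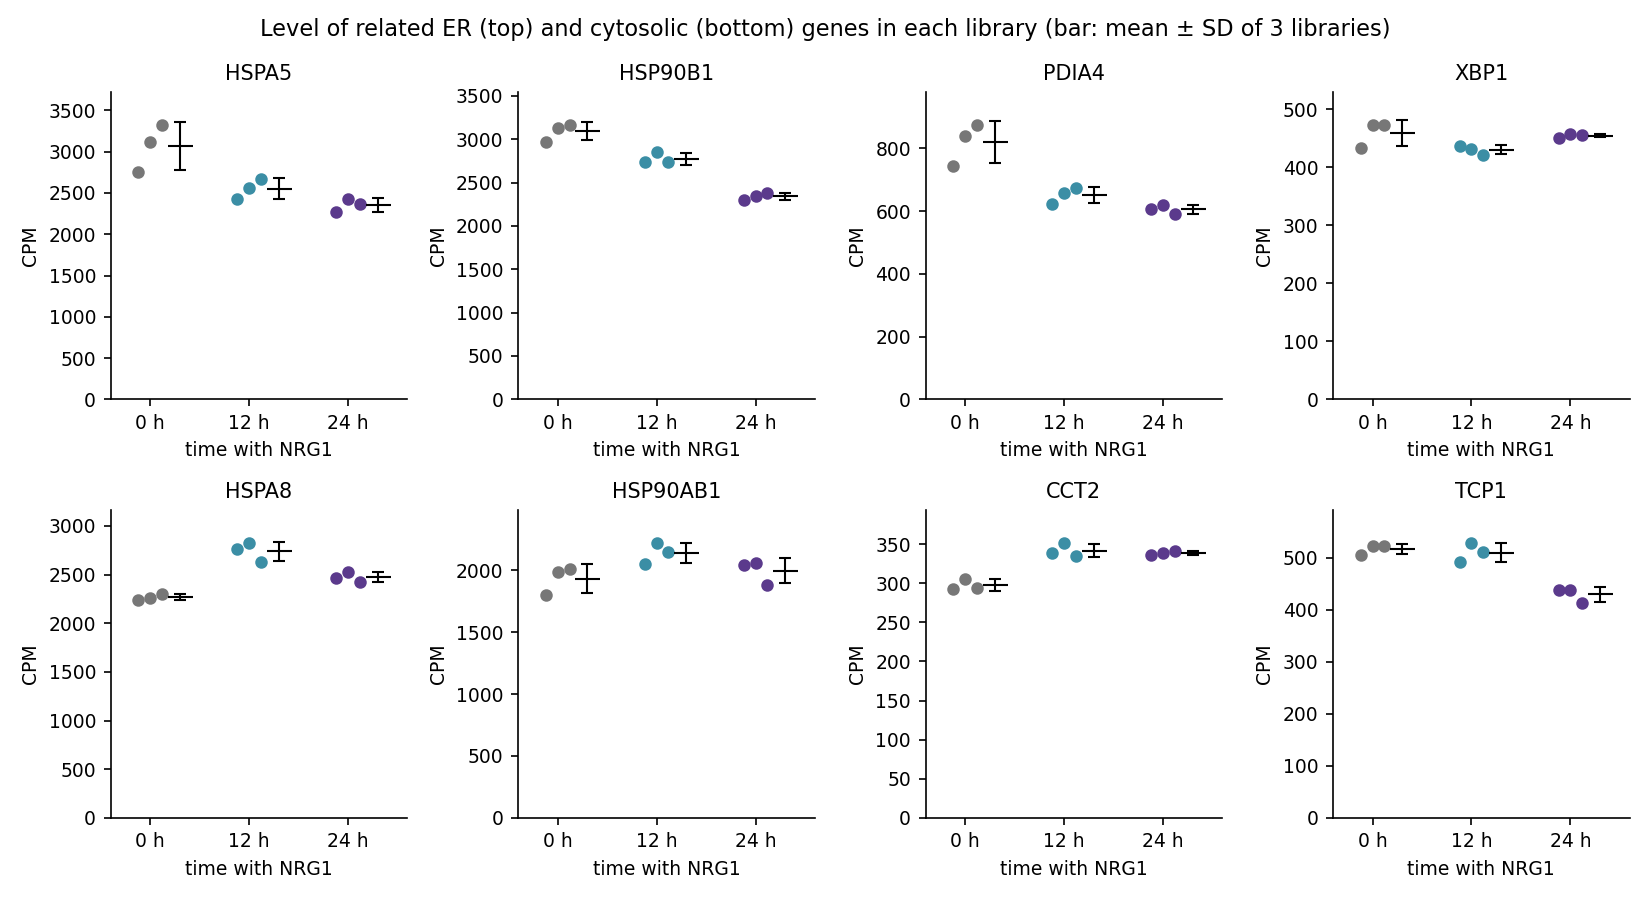
Level in CPM (y axis from 0) of 4 ER members (HSPA5, HSP90B1, PDIA4 and XBP1) and 4 cytosolic members (HSPA8, HSP90AB1, CCT2 and TCP1) at 0, 12 and 24 h. Each point is a library and the bars are the mean and SD of 3 libraries. HSP90B1 drops in steps from 3090.3 to 2772 and 2343 CPM, HSPA8 is highest at 12 h (2740.0 CPM), and TCP1 is lower only at 24 h (430.2 CPM), while CCT2 stays high.

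In mitochondria, HSPD1 (HSP60) works with HSPE1 (HSP10), and the genes share a promoter region on chromosome 2. HSPD1 was at 1467, 1529.5 and 1543 CPM at 0 h, 1622, 1638 and 1587 CPM at 12 h and 1451, 1487 and 1433 CPM at 24 h. It was higher at 12 h by 0.09 ± 0.03 (edgeR adjusted p = 0.0252, lost in 3 of 19 settings) and lower at 24 h than at 12 h by -0.15 ± 0.03 (adjusted p = 0.0015), leaving -0.05 against 0 h (adjusted p = 0.229). HSPE1 passed at neither time (-0.09 and -0.10, adjusted p = 0.207 and 0.115), and its annotated span lies within that of HSPD1 on the other strand, so reads of HSPD1 could add to it. HSF1, the regulator, did not pass at 12 h (adjusted p = 0.988) and was higher at 24 h by 0.11 (adjusted p = 0.0294), a call lost in 4 of 19 settings. HSF1 also overlaps DGAT1, whose counts come to 29.9% of its own.

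The wider heat-shock network was read from further lists of the same kind. Of 12 HSP90 co-chaperones 8 were higher and 0 lower at 12 h and 4 higher and 0 lower at 24 h, led by the immunophilin PPID (0.27 and 0.39). These are 66.7% and 33.3% higher, against 10.6% and 11.6% of all tested genes and 21.4% and 21% of the abundant ones. Of 20 other HSP70 system genes 4 were higher and 1 lower at 12 h and 6 higher and 2 lower at 24 h. The 20% higher at 12 h is near the 21.4% of abundant genes, and at 24 h 30% were higher against 21%. The largest rises that passed were in genes at about 1 CPM or less, HSPA6 at 12 h (0.635 to 1.08 CPM, log2 fold change 0.77) and HSPA2 at 24 h (0.151 to 0.548 CPM, 1.83), while the neuronal J-domain gene DNAJB2 fell by 0.21 and by 0.25. Of 7 other mitochondrial chaperones 3 were higher at 12 h and 5 at 24 h, with GRPEL1 at 0.29 at 12 h and DNAJA3 at 0.18 at 24 h. That list is too short for a share to be read against all genes. The 3 other heat-shock factors had values between -0.03 and 0.09 at 12 h and between -0.06 and 0.19 at 24 h, none of which passed the edgeR adjusted p-value.

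Set side by side within each library, the 24 ER members summed to 16970.0, 18645 and 18959 CPM at 0 h, 15435, 16070.4 and 15987 CPM at 12 h and 14712, 15215 and 14672 CPM at 24 h. The 17 heat-shock members summed to 9655, 10019 and 10005 CPM, then 10826, 11109 and 10714 CPM, and then 10187, 10316 and 9893 CPM. The log2 ratio of the sums was 0.88 ± 0.06 at 0 h, 0.54 ± 0.03 after 12 h and 0.55 ± 0.02 after 24 h (SD, n = 3), so that every later library lay below every 0 h library and 12 and 24 h overlapped. Because both sums come from the same library, this ratio does not depend on how libraries are scaled to one another. A few abundant genes carry most of each sum.

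**Figure D4:**
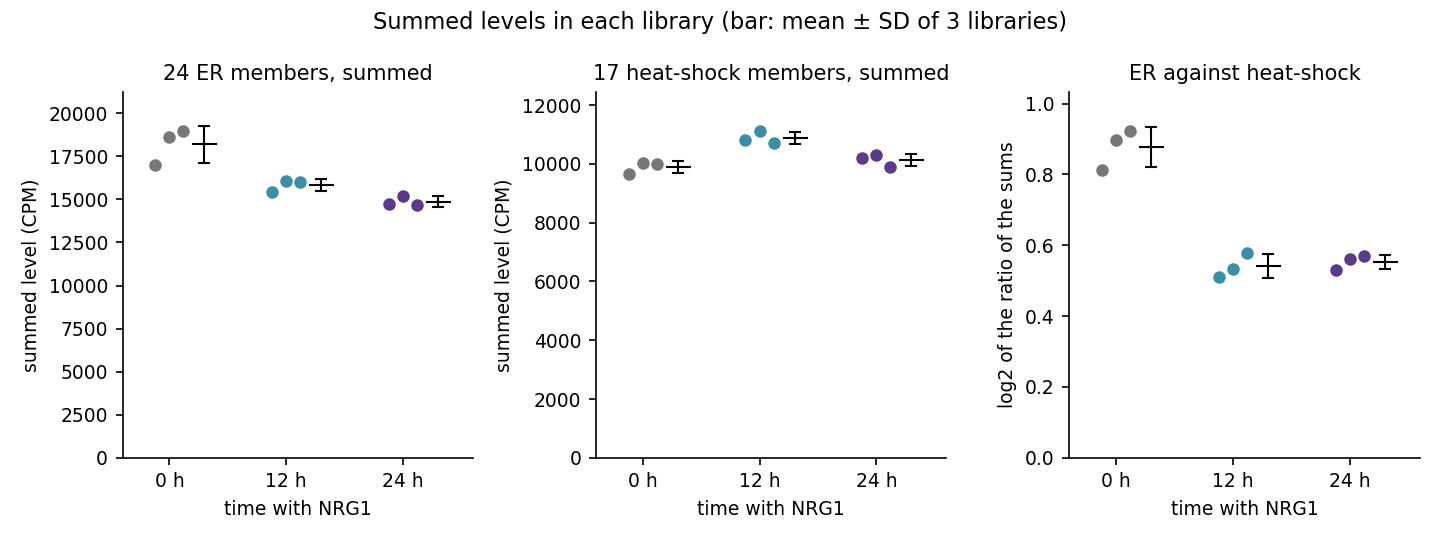
Summed level of the 24 ER members and of the 17 heat-shock members in CPM, and the log2 ratio of the sums, in each library at 0, 12 and 24 h. Points are libraries, and bars are the mean and SD of 3 libraries. The ER sum is highest at 0 h, the heat-shock sum is highest at 12 h, and the ratio drops from 0.81 to 0.92 at 0 h to 0.51 to 0.58 in the later libraries.

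Matched pairs of the compartments were set side by side as well. The log2 ratio of HSPA5 to HSPA8 was 0.30, 0.46 and 0.53 in the 0 h libraries, -0.19, -0.14 and 0.02 at 12 h and -0.12, -0.06 and -0.04 at 24 h. HSPA5 thus had the higher CPM in every 0 h library, but not in most later ones. For HSP90B1 to HSP90AB1 the ratio was 0.68 ± 0.04 at 0 h, 0.37 ± 0.03 after 12 h and 0.23 ± 0.09 after 24 h (SD, n = 3). These ratios compare each gene with itself over time, since CPM depends on transcript length.

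The comparison of 24 h with 12 h gave few calls. Of the ER members HSP90B1, PDIA3 (-0.13, edgeR adjusted p = 0.011) and PDIA6 (-0.15, adjusted p = 0.00538) were lower, against 3.05% of all tested genes and 6.5% of the abundant ones, and ERN1 was higher, against 3.03% and 5.84%. Of the heat-shock members HSPA8, HSPD1, TCP1, HSPB1 (-0.13, adjusted p = 0.0146) and DNAJA1 (-0.10, adjusted p = 0.0426) were lower and 0 were higher, where 8 of the 17 had an unadjusted p-value under 0.05. Among all 19250 tested genes 3629 had an unadjusted p-value under 0.05. The medians were -0.02 and -0.05, against 0.00 over all genes. Of the 18 ER members lower at 12 h, 15 were also lower at 24 h. The 3 that were not (XBP1, ERN1 and SEC61B) and the 3 lower at 24 h alone (PDIA6, SYVN1 and ATF6) make up 6 genes, of which PDIA6 and ERN1 differed between 12 and 24 h by the test and the other 4 did not pass it.

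Levels of different genes were set against each other per kilobase of the canonical transcript (GENCODE v44). At 0 h CALR led with 1574 ± 114 CPM per kb, followed by HSP90B1 (1111 ± 36.8), HSPA8 (1001 ± 14.0), HSPA5 (782 ± 74.1) and HSP90AB1 (756 ± 45.6; SD, n = 3). HSPA5 and HSP90AB1 did not differ beyond their spread. At 12 h HSPA8 (1210.3 ± 42.2) stood above HSP90B1 (996 ± 23.4) and below CALR (1316 ± 43.8), beyond their spread. The middle of the order held MANF (440 ± 28.3 at 0 h), HSPB1 (379 ± 17.8), SEC61B (354 ± 5.56), PDIA3 (304 ± 12.0) and PDIA4 (296 ± 24.3), of which the last 2 overlapped. The sensors were at the bottom, ATF6 at 11.5 ± 0.387 and ERN1 at 9.73 ± 0.485 CPM per kb, and HSPA1A was last at 0.300 ± 0.0456.

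The promoter letters shown at the start were read against these values. Of the 10 ER members with an ERSE or ERSE-II, 9 were lower at 12 h and 9 at 24 h, with median log2 fold changes of -0.26 and -0.32. Of the 13 ER members whose windows lacked both, 8 were lower at each time, with medians of -0.12 and -0.17. The ranges overlapped widely, since PDIA4, DNAJB9, DNAJC3 and MANF, without the letters, had 12 h values of -0.33, -0.33, -0.31 and -0.28, and the gene with the letters that did not pass was PDIA6 at 12 h and XBP1 at 24 h. Whether the 2 groups of ER members differ was not tested. Of the 5 heat-shock members with a heat-shock element, 4 were higher at 12 h and 1 at 24 h, with medians of 0.12 and 0.02. From 12 to 24 h 3 of the 5 were lower. Of all 17 heat-shock members 10 were higher at 12 h and 7 at 24 h. The 17 include the 5 with the element and HSF1, which had no window, so this sets a part against the whole. It was not tested either.

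**Figure D5:**
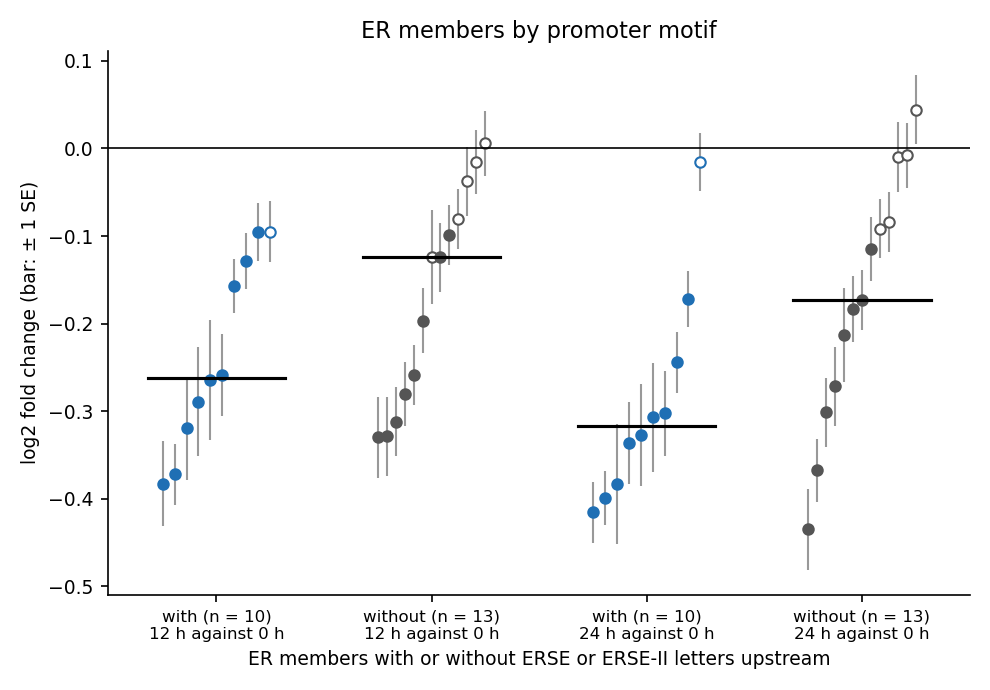
Log2 fold change (y axis, bars are 1 standard error) of 23 ER members with a promoter window, with or without an ERSE or ERSE-II, at 12 h and 24 h against 0 h; black lines are medians and open points did not pass the adjusted p-value of 0.05. The medians are -0.26 and -0.32 with the elements and -0.12 and -0.17 without, and the points of both groups overlap.

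Outside the members, 18 other genes had an ERSE in a window and 10 of these were tested. At each time 5 of the 10 were lower and 0 higher by the edgeR adjusted p-value, against the 8.16% and 9.48% lower among all tested genes and the 13.8% and 15.2% among the abundant ones. At 12 h these were FICD (-0.30), which modifies HSPA5, ERO1B (-0.27), an ER oxidase, SERP1 (-0.21), which protects membrane proteins in translocation, ALG12 (-0.17), a glycan-building enzyme, and TRIM5 (-0.16), an antiviral factor, and the same 5 were lower at 24 h. ALG12 overlaps CRELD2 head to head, and the window of each holds the same element. CRELD2 fell at both times, and the part of its reads in the ALG12 values was not tested. ERO1B is also on the list of other folding enzymes above. With 10 tested genes the share is coarse. These genes were chosen by sequence alone and are named after their values were seen. For ERSE-II 11 other genes were tested, of which 0 were lower and 2 higher at 12 h and 1 was lower and 1 higher at 24 h. For the heat-shock element 52 were tested, of which 5 were lower and 5 higher at 12 h and 7 lower and 5 higher at 24 h. For the unfolded protein response element 138 were tested, of which 21 were lower and 17 higher at 12 h and 21 lower and 21 higher at 24 h. The shares higher among all tested genes were 10.6% at 12 h and 11.6% at 24 h.

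Some members share reads with neighbours. SYVN1 overlaps FAU and MRPL49, whose counts are 302.5% and 121.2% of its own, and DNAJB1 overlaps TECR, with 101.8%. FAU and MRPL49 changed by 0.03 each at 12 h and by 0.00 and -0.05 at 24 h, and TECR by -0.09 and -0.17, none passing the adjusted p-value. CRELD2 overlaps ALG12 (17.2% of its counts) and DNAJB11 overlaps TBCCD1 (14.2%), which was higher by 0.24 at both times while DNAJB11 was lower. The values of these members are uncertain to that extent, and the part of the neighbours in them was not tested. The search for near-identical copies also matched stretches of ATF6, of 295 bases at most, to 43 genes. A stretch of 186 bases of DNAJB1 matched DTD1. Counts of the matched genes came to 1482% of those of ATF6 and 29.6% of those of DNAJB1. Reads shared through these stretches were not tested.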

How the data were processed

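RNA sequencing counts of 9 LNCaP libraries were used, 3 each at 0, 12 and 24 h with NRG1, grouped by sample title. Per the study's methods, the authors trimmed read pairs with Cutadapt, aligned them to GRCh38 with STAR and assigned them to GENCODE genes with featureCounts. The strand setting and the treatment of multiply mapped reads are not given in the sources used here. The authors deposited whole-number counts per gene and library, without normalization or pooling. The table also has 14 empty columns, which were not used. All 3 deposited libraries of each time were used, the number the study gives for NRG1-treated cells.

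Members and lists were chosen with earlier results of these data known. Genes kept by filterByExpr (19250) were scaled by TMM and tested with edgeR 4.0.16 (R 4.3.3), by a robust quasi-likelihood fit over the 9 libraries without covariates. P-values were adjusted by the Benjamini-Hochberg method over all tested genes, and a gene was called at an adjusted p of at most 0.05. The fold limit of 1.5 is the one in the study's methods. Log2 fold changes are fitted values, and CPM are means over 3 replicates. Depth of 47016302 to 60985825 counts sets counting error only, since molecules were not tagged. The fit was tested on simulated counts.

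All members are reported. From each further list the largest rise and the largest fall past the adjusted p, per comparison with 0 h, are named, together with genes sharing reads. Genes with an ERSE were named after their values were seen. Copies were sought with BLAST 2.17.0 (at least 95% identity over at least 150 bases). Alternatives were DESeq2 1.42.0, median-of-ratios size factors, no scaling, 3 other count filters, only the 6 libraries compared, a replicate block, thinning to the smallest library, HSPA1A and HSPA1B summed, and each of the 9 libraries left out. The titles do not say whether equal replicate numbers mark paired samples. Deviations of same-numbered libraries correlated by at most 0.03 over 9 pairs, and those of differently numbered ones by at most 0.05 over 18. These correlations include genes with few counts, whose counting noise can hide a pairing, so they do not decide the question. The main fit used no pairing.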

Additional observations from a re-analysis of the deposited data

Results flagged for a closer look

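The effects at 12 and 24 h differed from each other for 9 members, by the edgeR test of 24 h against 12 h. The ER members lower at 24 h were HSP90B1 (log2 fold change -0.24), PDIA6 (-0.15) and PDIA3 (-0.13), and ERN1 was higher (0.17). The heat-shock members were all lower at 24 h, TCP1 (-0.25), HSPD1 (-0.15), HSPA8 (-0.15), HSPB1 (-0.13) and DNAJA1 (-0.10). The calls of HSP90B1, TCP1, HSPD1 and HSPA8 held in all 19 alternatives, and those of the other 5 were lost in at least 1.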

How the results depend on the processing

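No called value changed sign in any of 19 alternatives. Of 18 ER members lower at 12 h, 12 kept the call in all, and of 18 at 24 h, 16 did. Of the heat-shock members 6 of 10 rises at 12 h and 4 of 7 at 24 h were kept. Leaving out 1 library gave 12 (without 0 h replicate 2) to 21 (without 0 h replicate 1) ER members lower at 12 h and 16 to 19 at 24 h, 6 to 10 heat-shock members higher at 12 h (6 without 12 h replicate 2) and 4 to 7 at 24 h (4 without 24 h replicate 1). The median of the ER members at 24 h ranged from -0.28 (without 0 h replicate 1) to -0.21, and that of the heat-shock members from 0.02 to 0.08. Between 24 and 12 h, leaving out 1 library gave 5 to 13 members called (5 without 12 h replicate 2), 1 to 5 ER members lower (1 without 12 h replicate 2, 5 without 0 h replicate 1) and 0 to 1 heat-shock member higher (HSF1, without 0 h replicate 1 or 2). Members past 1.5-fold at 12 h numbered 0 to 1 (HSPA1A, without 12 h replicate 3). With only the 6 libraries compared, 5 ER members were lower and 1 heat-shock member higher at 24 h than at 12 h, and without scaling 1 heat-shock member was higher. The cause was not tested. With the replicate block 30 members were called at 12 h, 30 at 24 h and 10 between the later times, against 28, 28 and 9 without it. Whether the numbers pair the samples is not known. Depth limits HSPA1A most, at under 1 CPM.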
